A study of Macaca fascicularis with 6 samples.

Results

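The genes described here are 10 enzymes and enzyme partners that make or break down eicosanoids: ALOX5, ALOX5AP, LTA4H, LTC4S, ALOX15, PTGS1, PTGS2, PTGDS, HPGDS and HPGD. They were found by their symbols among the 28623 genes of each library, and each symbol matched 1 gene. Their Ensembl identifiers in the files are ENSMFAG00000021649 (ALOX5), ENSMFAG00000032586 (ALOX5AP), ENSMFAG00000000948 (LTA4H), ENSMFAG00000043066 (LTC4S), ENSMFAG00000045049 (ALOX15), ENSMFAG00000046283 (PTGS1), ENSMFAG00000029066 (PTGS2), ENSMFAG00000003811 (PTGDS), ENSMFAG00000044963 (HPGDS) and ENSMFAG00000041220 (HPGD). In the cells kept for analysis the fewest UMIs (unique molecular identifiers, each standing for 1 captured transcript) were those of HPGDS, with 221 in 146 cells. LTA4H had 69727 UMIs in 7016 cells, PTGDS 57975 in 2894, HPGD 12647 in 1245, ALOX5 11855 in 3524, LTC4S 8417 in 2661, PTGS2 7853 in 2481, ALOX15 6124 in 920, ALOX5AP 4981 in 3035 and PTGS1 2571 in 1732.

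Eicosanoids are lipid mediators made from arachidonic acid. In the leukotriene branch, ALOX5 (5-lipoxygenase), working with its membrane partner ALOX5AP, makes leukotriene A4, which LTA4H turns into leukotriene B4, a chemoattractant of neutrophils, and which LTC4S joins to glutathione to give leukotriene C4, the parent of the cysteinyl leukotrienes that constrict airways. In the prostanoid branch, PTGS1 and PTGS2 (cyclooxygenases 1 and 2) make prostaglandin H2, from which PTGDS and HPGDS make prostaglandin D2, a mediator known from mast cells. HPGD (15-hydroxyprostaglandin dehydrogenase) starts the breakdown of prostaglandins, a process for which the lung is known, and ALOX15 (15-lipoxygenase) opens a further branch. The symbols COX1 and COX2 in these files belong to mitochondrial cytochrome oxidase and were not taken for the cyclooxygenases.

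The study compared the lungs of cynomolgus monkeys (Macaca fascicularis) with and without an asthma-like disease induced by Ascaris suum, a roundworm of pigs. All 6 animals were males aged 3 to 5 years by the labels. The 3 control animals (replicates 1, 2 and 3) received saline, and the 3 asthma animals (replicates 8, 10 and 11) were sensitized by injection of A. suum antigen at 1 mg/mL with adjuvant and challenged through the nose at 10 mg/mL, with lungs collected in week 11. The disease was induced in previously unsensitized animals over weeks, which limits it as a model of long-standing asthma. Each animal gave 1 library of dissociated lung cells on the 10x 3′ platform, so the animal is the replicate. Total UMIs were 40556102, 33210436 and 32240293 in controls 1, 2 and 3, and 41184329, 41489879 and 29014556 in asthma 8, 10 and 11. Of 35133 barcodes 24235 passed the quality filter, with 3200 to 4620 cells a library and a median of 3835 to 5048.5 UMIs per cell. Library pairs shared between 1 and 11 barcodes.

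Values below follow the order control 1, 2, 3 and then asthma 8, 10, 11. A level is a gene's UMIs summed over the cells named and scaled to 1000000 UMIs of those cells (CPM). Cells were clustered without the 10 genes, and clusters were named from marker lists, so all cell names here are rebuilt. They carry "-like", except that the broad stromal and epithelial classes are written without it. The largest class was T and NK-like, with 10167 cells, followed by macrophage-like with 3423, stromal with 2310, granulocyte-like with 1656, monocyte-like with 1095, B-like with 873, epithelial with 850, mesothelial-like with 622, dendritic-like with 241 and mast-like with 97. Another cluster of 1251 cells, led by PLD4, CD300H and POU2F2, stayed unnamed and is called the PLD4 cluster. The labelled tissue was reflected in type 2 alveolar-like cells (87, 24, 12 and 42, 84, 111) and alveolar macrophage-like cells (130, 126, 182 and 352, 6, 152), both found in every library.

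The libraries differed in which cells they held. Asthma 11 stood apart with 23.4% stromal cells, against 3.41% to 9.71% in the other 5 libraries, and 26.8% T and NK-like cells, against 42.1% to 47.7%. Only 6 cells of asthma 10 kept the alveolar macrophage-like name. The first clustering gave an alveolar macrophage cluster led by FABP4, CHIT1 and MARCO, and its macrophage-like cells numbered 607, 155, 203 in controls and 383, 184, 138 in asthma, but sub-clusters in which the 6 alveolar markers averaged lower than in the other macrophage-like cells lost the name. One of these, led by IFI27 and IFIT1 (mean log2 difference -0.47), held 271 of its 284 cells in asthma 10, and another, led by EREG (-0.24), 494 of 517 in control 1. The named cells came from sub-clusters at 0.66 and 1.35. For a comparison in alveolar macrophage-like cells, levels in the whole alveolar cluster are therefore given as well. That cluster does not hold every named cell, since it has 138 cells in asthma 11, where 152 carry the name. Mesothelial-like cells numbered 31, 46, 49 in controls and 266, 200, 30 in asthma. Mast-like cells numbered 3, 7, 4 and 55, 21, 7. Only asthma 8 and asthma 10 thus reached the minimum of 10 cells set for class means and tests, and no test was possible in mast-like cells. Some levels of single libraries below rest on fewer cells and are given with their cell numbers. For calls that leaving out 1 library makes or ends, the value without it is given beside the result or under the processing alternatives.

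Each enzyme was concentrated in a few cell classes, and the classes differed between enzymes. Over the 9 classes with at least 10 cells in every library, 7 of the 10 genes were higher in their leading class than in the next one in all 6 libraries. The mean log2 difference was 2.90 ± 0.37 for ALOX5 (macrophage-like over granulocyte-like), 1.36 ± 0.15 for ALOX5AP (granulocyte-like over macrophage-like), 1.97 ± 0.84 for LTC4S (stromal over mesothelial-like), 1.36 ± 0.97 for LTA4H (macrophage-like over the PLD4 cluster), 5.53 ± 2.04 for ALOX15 (mesothelial-like over stromal), 1.41 ± 0.58 for PTGS2 (granulocyte-like over monocyte-like) and 6.03 ± 1.98 for HPGD (stromal over mesothelial-like), as mean ± SD over n = 6 libraries of log2(CPM + 1). The order of the leading pair could not be told from the spread for PTGS1 (stromal and mesothelial-like, higher in 5 of 6), PTGDS (stromal and mesothelial-like, 3 of 6) or HPGDS (B-like and macrophage-like, 4 of 6). The same levels chose these classes, so the order is a description and carries no test. In B-like cells HPGDS had only 5, 1, 2 UMIs in controls and 4, 0, 0 in asthma. Mast-like cells, which were not ranked, had the highest mean of ALOX5, ALOX5AP, LTC4S, PTGS1, HPGDS and HPGD, as the map of mean levels by class shows.

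**Figure D1:**
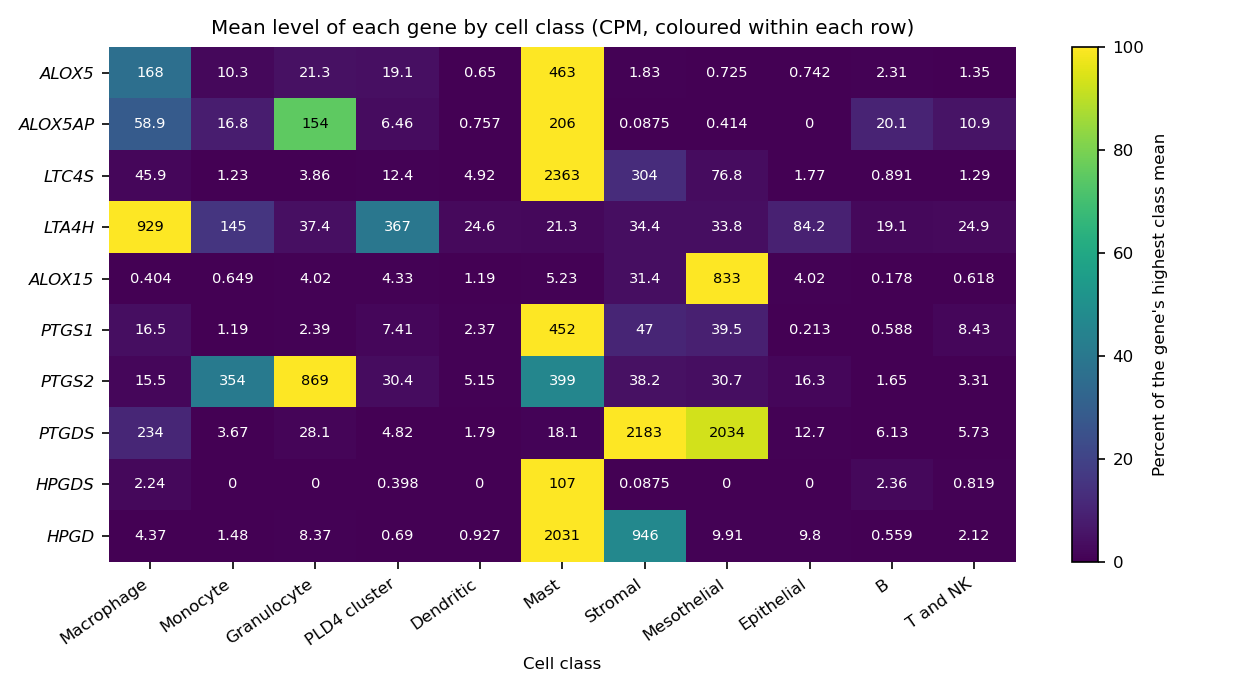
Mean level of each enzyme gene (rows) in each cell class (columns), in CPM, averaged over the libraries with at least 10 cells of the class. Colour is the percent of the gene's own highest class mean, so colours compare classes within a row and not genes. Mast-like cells rest on asthma 8 and asthma 10 only. ALOX15 stood almost alone in mesothelial-like cells (833 CPM), and PTGS2 was highest in granulocyte-like cells (869 CPM).

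No enzyme gene passed the test between asthma and control. With edgeR's quasi-likelihood test on UMIs summed per animal, requiring an adjusted p below 0.05 and a log2 fold change beyond 0.25, 0 of 10 genes were called in whole libraries, where 0.0699% of 14306 genes were. Within classes 0 of 46 gene and class pairs were called, and within subtypes 0 of 40. The share of all tested genes called was 1.73% in stromal cells (1.02% higher and the rest lower in asthma), 0.037% in mesothelial-like cells, 0.0318% in B-like cells (0.0159% in each direction), 0.00956% in T and NK-like cells and 0% in the other classes. Among the subtypes named below it was 0.48% in fibroblast-like, 0.0432% in basal-like and 0.0252% in interstitial macrophage-like cells and 0% in neutrophil-like, alveolar macrophage-like and larger-vessel endothelial-like cells. At an unadjusted p below 0.05 there were 3, 7 and 11 such pairs in whole libraries, classes and subtypes. Of all genes, 1821 of 14306 had such a p in whole libraries. By share, classes ran from 106 of 3035 genes in granulocyte-like to 1785 of 9547 in stromal cells. Subtypes ran from 114 of 2977 in neutrophil-like to 633 of 6661 in fibroblast-like cells. DESeq2 called 1, 2 and 2 pairs, against 4.52%, 0.848% and 0.16% of all genes it tested in whole libraries, classes and subtypes. The median log2 fold change of the 10 genes in whole libraries was 0.34, beside -0.015 for all genes tested. Groups that do not overlap, where all asthma libraries of a fit lie on 1 side of all its controls, were seen for 4 of 10 genes in whole libraries, all with asthma higher, against 19% of all genes. Within classes 6 of the 46 pairs had asthma higher and 3 had it lower in this sense, 19.6% together, against an average of 14.7% of all genes in the same classes (8.96% in granulocyte-like to 31.6% in stromal cells). Within subtypes fitted with 3 libraries in each group the counts were 4 and 5 of 30 pairs, 30% together, against an average of 11.5% (9.27% in neutrophil-like to 16.1% in fibroblast-like cells). For the other 10 pairs, in alveolar macrophage-like, basal-like and club-like cells, a group had only 2 libraries, and 1 and 1 did not overlap, 20% together, against an average of 26.1% (20.8% in basal-like to 32% in club-like cells). Pairs of 1 gene share animals and cells, so these shares carry no test. The comparisons below are given as values with their errors, none of them a call.

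Some of the pairs that did not overlap lay outside the leading cells of their gene. PTGS1 in T and NK-like cells was 7.76, 2.34, 9.43 CPM in controls and 9.59, 10.1, 11.3 CPM in asthma (log2 fold change 0.65), and LTA4H in mesothelial-like cells was slightly higher in asthma (0.22). LTC4S in T and NK-like cells, at means of 0.865 and 1.72 CPM with a UMI in 0.423% of cells, was about as low as in monocyte-like cells (0.758 and 1.70 CPM) and is not read as expression. ALOX5AP in NK-like cells was 0.34, 11.15, 1.68 CPM in controls and 15.97, 20.8, 16.3 CPM in asthma (2.43 ± 0.85, edgeR adjusted p = 0.867, where 0.0275% of genes were called). These cells came from a pair of sub-clusters, of which the one led by ITGAD and FCER1G held 40, 33, 55 and 53, 54, 251 cells. ALOX5AP in that one was 0, 7.85, 0 CPM in controls and 5.11, 16.1, 16.1 CPM in asthma, and the groups overlapped. Its UMIs there were 0, 1, 0 and 1, 3, 15. In the other ALOX5AP was 0.354, 11.55, 1.88 and 20.3, 21.6, 17.2 CPM, with 44 cells in asthma 11. ALOX15 in stromal cells was lower in asthma (-3.16). PTGS2 in alveolar macrophage-like cells was 10.8, 5.82, 8.97 CPM in controls and 5.39 and 2.27 CPM in asthma 8 and 11, asthma 10 being left out of the fit (-1.25), while in the whole alveolar cluster it was 11.6, 6.61, 8.54 and 5.54, 6.79, 4.72 CPM, and the groups overlapped.

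Of the leukotriene enzymes, ALOX5 and LTA4H were highest in macrophage-like cells among the ranked classes, ALOX5AP in granulocyte-like and LTC4S in stromal cells. Macrophage-like cells held 76.9% to 92% of the ALOX5 UMIs of a library, 52.3% to 85.5% of ALOX5AP and 57.6% to 87.4% of LTA4H. ALOX5 in macrophage-like cells was 128, 149, 207 CPM in controls and 227, 120, 180 CPM in asthma. Controls and asthma overlapped in these cells (log2 fold change 0.00 ± 0.25 SE, edgeR adjusted p = 0.999). In interstitial macrophage-like cells ALOX5 lay close together, at 108, 102, 124 and 127, 124, 132 CPM, and in alveolar macrophage-like cells it spread more widely, at 89.9, 170, 235 CPM in controls and 259 and 209 CPM in asthma 8 and 11. In the whole alveolar cluster ALOX5 was 134, 165, 230 and 250, 122, 219 CPM, asthma 10 being the lowest. In the PLD4 cluster ALOX5 was 14.2, 14.9, 11.4 CPM in controls and 18.6, 29.3, 26.2 CPM in asthma, without overlap, as for 12% of genes tested there (0.79 ± 0.26, edgeR adjusted p = 0.869). In mast-like cells it was 608 CPM in asthma 8 and 319 CPM in asthma 10.

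ALOX5AP had its highest ranked level in granulocyte-like cells, most of them neutrophil-like, where ALOX5 itself averaged 21.3 CPM and had too few counts to be tested. ALOX5AP there was 114, 111, 203 CPM in controls and 182, 119, 197 CPM in asthma. Those ranges overlapped (log2 fold change 0.27 ± 0.33, edgeR adjusted p = 0.999). In macrophage-like cells it was 44.6, 49.3, 73.1 and 60.3, 46.2, 80.0 CPM, again overlapping. In interstitial macrophage-like cells it was 20.4, 20.1, 21.8 CPM in controls and 25.7, 28.4, 51.1 CPM in asthma, where the groups did not overlap, as for 10.2% of genes tested there (0.68 ± 0.27, edgeR adjusted p = 0.928). In whole libraries ALOX5AP was 26.8, 27.6, 23.5 and 31.6, 30.9, 30.8 CPM, every asthma library being above every control by a margin within the error of the fit (0.11 ± 0.13, edgeR adjusted p = 0.786).

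LTA4H, the leukotriene B4 enzyme, followed the macrophages. Its level in macrophage-like cells was 780, 1080.3, 1171 CPM in controls and 1306, 515, 720 CPM in asthma, which overlapped (log2 fold change -0.38 ± 0.33, edgeR adjusted p = 0.914). Alveolar macrophage-like cells had 659, 1272, 1488 CPM in controls and 1554 and 1002 CPM in asthma 8 and 11 (900, 1261, 1452 and 1501, 817, 1031 CPM in the whole alveolar cluster), and 877 of 948 of these cells carried at least 1 UMI of both ALOX5 and LTA4H. In the PLD4 cluster LTA4H was 326, 526, 204 and 225, 435, 487 CPM. It was also the enzyme most often seen at a low level elsewhere. Among T and NK-like cells, at a median of 3660 UMIs, 9.05% had an LTA4H UMI, beside 0.482% with one of ALOX5, while alveolar macrophage-like cells, at a median of 25162.5 UMIs, had ALOX5 in 92.7%.

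LTC4S, which commits leukotriene A4 to the cysteinyl leukotrienes, was divided between unlike cells, and differently in each library. Macrophage-like cells held 15.5% to 60.5% of a library's LTC4S UMIs, stromal cells 15.2% to 61.5% and mast-like cells 2.06% to 32.9%. In larger-vessel endothelial-like cells LTC4S was 1225, 1745, 1075 CPM in controls and 1075, 748, 1037 CPM in asthma, and 259 of 284 cells carried a UMI. Controls lay above asthma, though control 3 and asthma 8 nearly touched, and 11.5% of all genes tested there did not overlap (log2 fold change -0.55 ± 0.25, edgeR adjusted p = 0.849). With cells of 200 or more genes and no maximum it was -1.22 ± 0.24 and called (edgeR adjusted p = 0.0165). In interstitial macrophage-like cells the level was 204, 214, 157 and 161, 156, 153 CPM. The alveolar macrophage-like cells rich in ALOX5 and LTA4H had LTC4S in 144 of 948 cells, against 730 of 1080 interstitial macrophage-like cells. ALOX5 and LTC4S were found together in 132 of the former and 507 of the latter.

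Mast-like cells often held the leukotriene C4 genes together. LTC4S there was 2148 CPM in asthma 8 and 2578 CPM in asthma 10, and 88 of 97 cells carried a UMI of it. ALOX5 was found in 75 of the 97 and ALOX5, ALOX5AP and LTC4S together in 51 (52.6%), at a median of 4221 UMIs per cell. All 3 were found together in 13.1% of interstitial and 10.1% of alveolar macrophage-like cells, whose medians were 11390.0 and 25162.5 UMIs, and in 5 of 1251 cells of the PLD4 cluster. T and NK-like cells, at a similar depth, had LTC4S in 0.423%. In whole libraries LTC4S was 34.4, 33.8, 40.7 CPM in controls and 67.3, 63.8, 46.9 CPM in asthma, with no overlap (0.57 ± 0.16, edgeR adjusted p = 0.252). In such whole-library sums more cells of a type and more RNA per cell cannot be told apart.

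**Figure D2:**
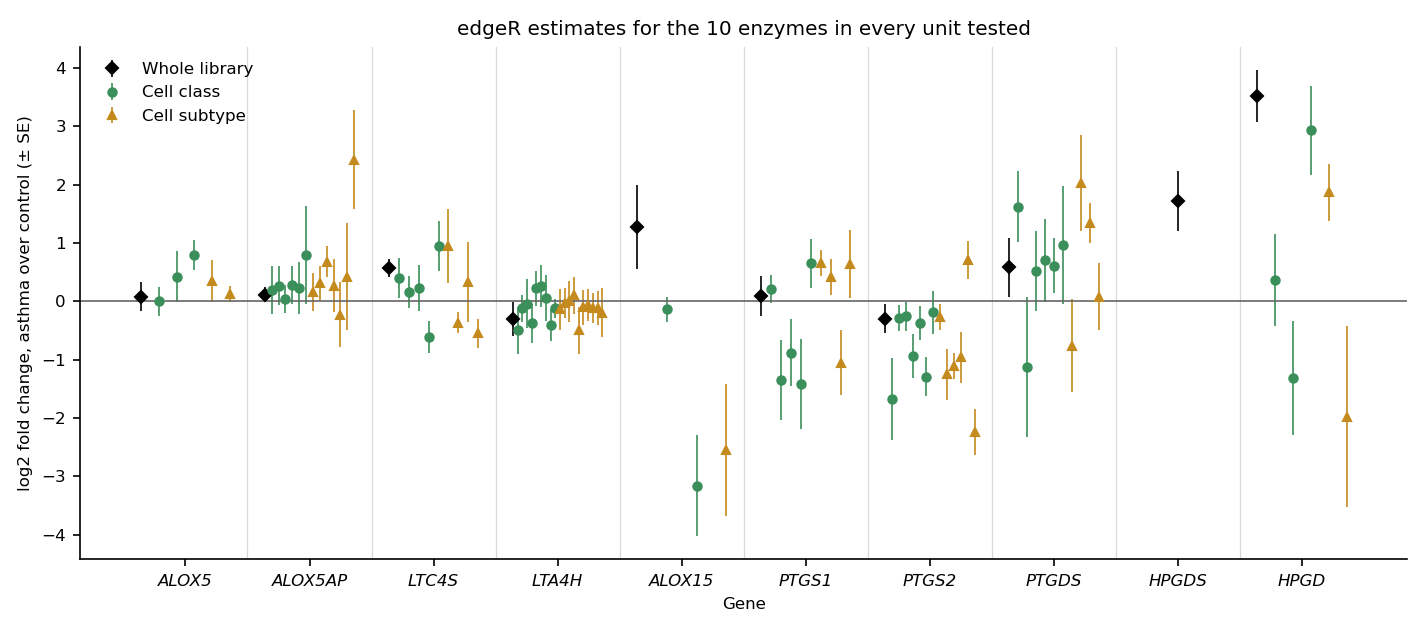
Log2 fold change of asthma over control with its standard error for each enzyme gene in whole libraries (diamonds), cell classes (circles) and subtypes (triangles) where it was tested, from edgeR on UMIs summed per animal. There were n = 3 control and 3 asthma animals, but 3 and 2 in alveolar macrophage-like, 2 and 3 in basal-like and 2 and 2 in club-like cells. None passed an adjusted p below 0.05. HPGD in whole libraries (3.52 ± 0.44) and PTGS2 in larger-vessel endothelial-like cells (-2.24 ± 0.40) lay farthest from 0 relative to their errors.

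ALOX15, which oxygenates arachidonic acid at another carbon, was a gene of mesothelial-like cells, the lining cells of the pleura. They held 64.7% to 91.8% of its UMIs in a library, and 602 of 622 carried one (median 9838.5 UMIs), against 0.256% of T and NK-like cells. Its level in these cells was 779, 814, 946 CPM in controls and 790, 750, 920 CPM in asthma. The groups were interleaved, in cells where 10.3% of genes tested did not overlap (log2 fold change -0.14 ± 0.22, edgeR adjusted p = 0.999). PTGDS was found beside it in 564 of the 622 cells. The genes most like ALOX15 across the 9 classes were PLA2G2A, a secreted phospholipase, WT1, a transcription factor of mesothelium, and CYP21A2 (Pearson r of mean log2 levels 0.978, 0.977 and 0.977 over 9 classes, a description).

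In whole libraries ALOX15 was 12.1, 19.4, 24.8 CPM in controls and 87.0, 52.3, 9.02 CPM in asthma, which overlapped (1.27 ± 0.72, edgeR adjusted p = 0.519). The summed mesothelial markers, of which ITLN1 was the most abundant, ran 1171, 1657, 1333 and 7153, 4958, 704 CPM in the same libraries. ALOX15 was thus high in asthma 8 and 10, the libraries with the most mesothelial-like cells, and low in asthma 11; the part of that cell share in the whole-library level was not tested. A smaller amount of ALOX15 was found in fibroblast-like cells, at 81.2, 113, 109 CPM in controls and 9.81, 70.4, 1.64 CPM in asthma. All 3 controls lay above all 3 asthma libraries, as for 16.1% of genes tested there (either direction; -2.55 ± 1.13, edgeR adjusted p = 0.597). Without asthma 10 the log2 fold change was -4.52 ± 0.51 and passed the test (edgeR adjusted p = 0.00225). By sub-cluster, fibroblast-like cells led by RBP4 had 115, 172, 139 CPM in controls and 13.8 and 205 CPM in asthma 8 and 10, and those led by CCL11 had at most 9.45 CPM in any library. The RBP4-led sub-cluster held 29, 50, 125 cells in controls and 22, 18, 1 in asthma, so the mix of sub-clusters moved with the fibroblast-like level, and its part in it was not tested.

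**Figure D3:**
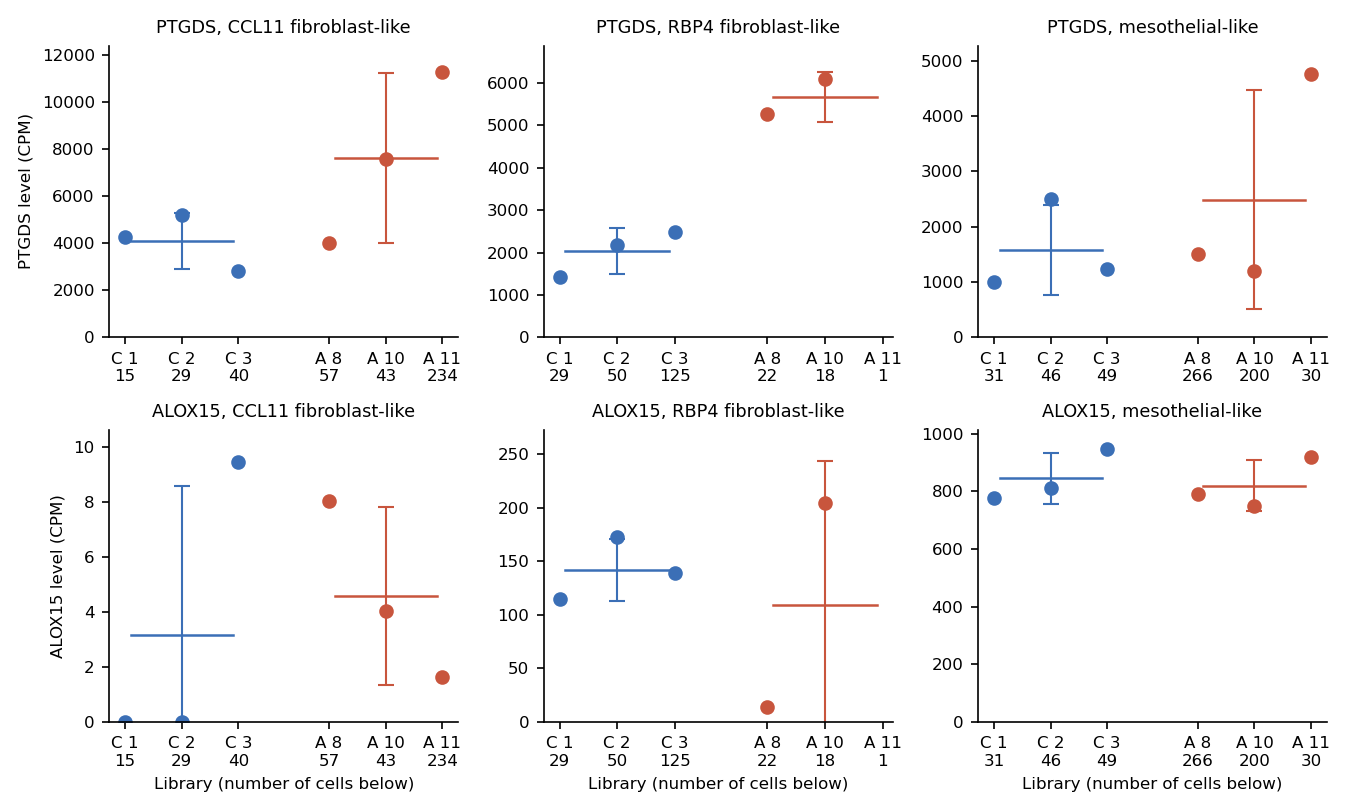
PTGDS (top) and ALOX15 (bottom) levels in CPM in each control (C) and asthma (A) library, with the number of cells below, in the CCL11-led and RBP4-led fibroblast-like sub-clusters and in mesothelial-like cells. Lines are group means and bars SDs (n = 3 a group, n = 2 for asthma in the RBP4-led cells, where asthma 11 with 1 cell is not drawn; bars are cut at 0); PTGDS in RBP4-led cells was above all controls in both asthma libraries drawn, and ALOX15 in mesothelial-like cells overlapped.

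The cyclooxygenases had different leading classes, and mast-like and larger-vessel endothelial-like cells held both. Of the 97 mast-like cells 68 had a UMI of PTGS1, 51 one of PTGS2 and 44 both, with PTGS2 at 357 and 442 CPM in asthma 8 and 10. PTGS1, the constitutive enzyme, averaged 47.0 CPM in stromal, 39.5 CPM in mesothelial-like and 16.5 CPM in macrophage-like cells, with 360 and 543 CPM in the mast-like cells of asthma 8 and 10. Within the stroma it belonged to larger-vessel endothelial-like cells, at 191, 57.5, 288 CPM in controls and 158, 53.4, 68.8 CPM in asthma. Those overlapped (log2 fold change -1.05 ± 0.55, edgeR adjusted p = 0.864), and so did stromal cells as a whole, at 85.3, 8.74, 101 and 50.1, 16.1, 20.8 CPM (-1.42 ± 0.77, edgeR adjusted p = 0.384). The spread within each group went along with 2 sub-clusters of these endothelial-like cells. The one led by GASK1B, F5 and BMX had 308 CPM of PTGS1 over all its cells and held 8, 2, 68 and 28, 12, 13 cells, while in the one led by TAC1 and ACKR1 the level ran 140, 33.5, 0 and 4.45, 6.81, 14.7 CPM in the 6 libraries. LTC4S had 1150 and 1064 CPM over all cells of these sub-clusters. The part of the sub-clusters in the PTGS1 level was not tested. In alveolar macrophage-like cells PTGS1 was 12.6, 12.2, 10.6 CPM in controls and 20.2 and 21.6 CPM in asthma 8 and 11, the fit leaving out asthma 10 with its 6 cells. Both asthma values were higher, where 26% of all genes tested did not overlap (0.66 ± 0.22, edgeR adjusted p = 0.961). In the whole alveolar cluster, asthma 10 included, PTGS1 was 18.6, 14.3, 11.3 and 20.5, 12.6, 21.3 CPM, and the groups overlapped.

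PTGS2, the inducible cyclooxygenase, was a gene of granulocyte-like and monocyte-like cells. In granulocyte-like cells it was 962, 1017, 885 CPM in controls and 670, 824, 857 CPM in asthma, and in monocyte-like cells 739, 331, 304 CPM and 302, 226, 224 CPM. Asthma lay below control in both, with non-overlap in 8.96% and 11.5% of genes tested, by -0.29 ± 0.22 and -0.94 ± 0.38 on the log2 scale (edgeR adjusted p = 0.999 and 0.816). Of the neutrophil-like cells, 450 of 1408 had a PTGS2 UMI at a median of only 1018 UMIs, against 1.16% of T and NK-like cells at 3660. The high value in monocyte-like cells of control 1 came with a sub-cluster of 131 cells led by CXCL3, CXCL8 and EREG, 115 of them from that animal, at 802 CPM. The monocyte-like cells of asthma 11 lay mostly in other sub-clusters, which held 238 of 253, 111 of 117 and 79 of 110 cells from that animal, at 250.3, 245 and 72.6 CPM of PTGS2. In the sub-cluster led by IFIT2 and PLAC8, present in all animals with 10, 100, 93 and 41, 12, 6 cells, PTGS2 was 417, 406, 285 CPM in controls and 405, 165, 638 CPM in asthma, and the groups overlapped. The granulocyte-like cells of the animals also lay in different sub-clusters. The one led by GBP1 held 81, 149, 16 cells in controls and 67, 18, 7 in asthma, and the one led by ALPL 10, 11, 14 and 30, 291, 17. The part of the sub-clusters in the granulocyte-like and monocyte-like levels was not tested.

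Across the 13 classes and subtypes where PTGS2 was tested, the log2 fold change was negative in 12, and it was negative in 6 of the 7 with an unadjusted p below 0.05. These units are not independent, since a subtype is part of its class and all come from the same 6 animals. In the 12 with 3 libraries in each group, asthma lay below all controls in 5 and above in 1, together 50% of them, where on average 13.3% of all genes in the same classes and subtypes did not overlap. Mesothelial-like cells, which the low-count filter kept out of these tests, went the other way, with PTGS2 at 12.1, 15.4, 21.5 CPM in controls and 74.4, 56.0, 4.69 CPM in asthma, high in asthma 8 and 10 and lowest in asthma 11. With no filter PTGS2 was called higher there (1.68 ± 0.37, edgeR adjusted p = 0.00463). Means in some other cells went either way. From control to asthma they ran from 6.72 to 21.95 CPM in club-like and from 1.27 to 2.23 CPM in CD8 T-like cells. In type 2 alveolar-like cells they ran from 10.4 to 3.35 CPM. The largest difference among the 13 was in larger-vessel endothelial-like cells, where PTGS2 was 160, 67.1, 145 CPM in controls and 22.2, 43.7, 24.6 CPM in asthma, a log2 fold change of -2.24 ± 0.40 (edgeR adjusted p = 0.0727). The groups were apart without overlap, on 29, 14, 82 and 66, 40, 53 cells. In interstitial macrophage-like cells the levels were 48.1, 38.5, 73.2 and 20.7, 28.4, 25.3 CPM (-1.11 ± 0.23, edgeR adjusted p = 0.532), again without overlap.

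In fibroblast-like cells the direction was the opposite one. PTGS2 there was 34.8, 20.8, 34.6 CPM in controls and 37.8, 78.6, 50.9 CPM in asthma (0.71 ± 0.33, edgeR adjusted p = 0.520). The CCL11-led sub-cluster of these cells had 0, 25.1, 37.8 CPM in controls and 42.3, 113, 50.9 CPM in asthma. The RBP4-led one had 49.1, 18.6, 33.6 CPM in controls and 27.6 and 8.18 CPM in asthma 8 and 10, with overlap, on 9, 7, 24 and 6, 1 UMIs, and 1 cell in asthma 11. The mix of these sub-clusters differed between the groups, and its part in the PTGS2 level was not tested. On the log2(CPM + 1) scale the level in larger-vessel endothelial-like cells exceeded that in fibroblast-like cells by 2.17, 1.64 and 2.03 in controls and lay below it in asthma, at -0.74, -0.83 and -1.02. The mean was 1.95 ± 0.27 in controls and -0.87 ± 0.14 in asthma (SD, n = 3 each). These cell types were picked for their opposite directions, so the difference is a description, with no test. Stromal cells as a whole, which hold both, had 64.6, 23.7, 65.1 and 20.8, 29.2, 25.6 CPM, with overlap (-1.29 ± 0.33, edgeR adjusted p = 0.0920, where 1.73% of genes were called).

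Immediate-early genes, which respond to stimulation and to tissue handling alike, moved with PTGS2 in these cells. Their summed level in larger-vessel endothelial-like cells was 13656, 5379, 6351 CPM in controls and 2736, 4043, 4917 CPM in asthma, with FOS the most abundant, and all 11 that were tested had a negative log2 fold change (median -1.37, none called, 6 at an unadjusted p below 0.05). Of all 3441 genes tested there 197 had such a p, and their median log2 fold change was -0.003 over all 3441. EGR1, 1 of the 11 immediate-early genes, was at -2.40 ± 0.38 (edgeR adjusted p = 0.0727). In interstitial macrophage-like cells 17 of 18 were negative (median -0.58), and in fibroblast-like cells 2 of 14 (median 0.40). Negative values prevailed elsewhere too, in 19 of 21 in whole libraries, 18 of 18 in epithelial, 17 of 18 in CD4 T-like and 12 of 14 in neutrophil-like cells, with medians of -0.39, -0.79, -0.36 and -0.10. In granulocyte-like and monocyte-like cells they were 10 of 14 and 10 of 19, with medians of -0.08 and -0.03. The part of immediate-early activity in the PTGS2 levels was not tested. Granulocyte markers summed to 64.9, 28.8, 64.1 and 46.8, 72.8, 103 CPM in the larger-vessel endothelial-like cells. Of a longer list of mast markers, FCER1A, MS4A2, CPA3 and HDC were at 0 there, and the others are not given. The part of mast-like RNA in the levels of these cells was not tested.

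**Figure D4:**
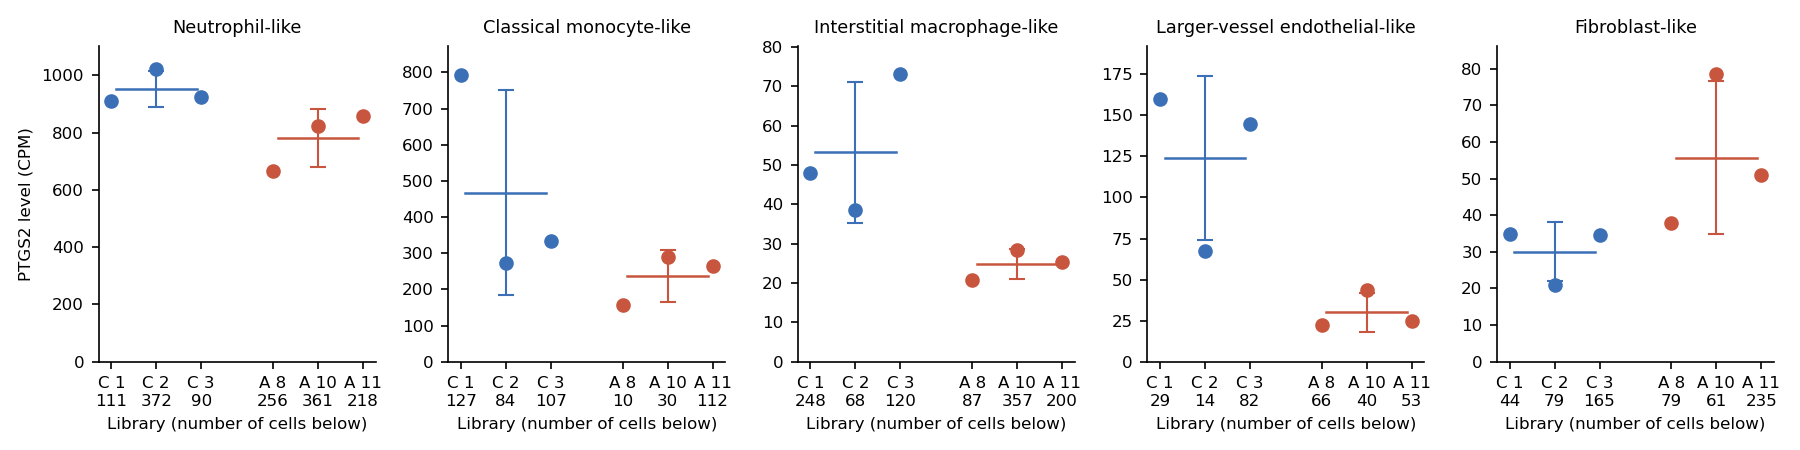
PTGS2 level in CPM in each control (C) and asthma (A) library, with the number of cells below, in neutrophil-like, classical monocyte-like, interstitial macrophage-like, larger-vessel endothelial-like and fibroblast-like cells. Lines are group means and bars SDs (n = 3 each). Asthma libraries lay below all controls in neutrophil-like, interstitial macrophage-like and larger-vessel endothelial-like cells and above all controls in fibroblast-like cells.

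The prostaglandin D2 synthases had different leading cells. PTGDS, the lipocalin-type enzyme, was divided differently in each library. Stromal cells, mostly fibroblast-like, held 5.34%, 40.3%, 44% of its UMIs in controls and 29.3%, 47.3%, 79.7% in asthma, and macrophage-like cells 81.9%, 14.3%, 32.1% and 21.3%, 1.44%, 8.16%. Control 1 was the library in which macrophage-like cells held most, and mesothelial-like cells held 3.4% to 42.3%. In fibroblast-like cells, of which 585 of 663 carried a UMI (median 5427) against 1.69% of T and NK-like cells, PTGDS was 2258, 3217, 2568 CPM in controls and 4394, 7079, 11270.4 CPM in asthma. The means were 2681 ± 489 and 7581 ± 3466 CPM (SD, n = 3 each), and the groups did not overlap. The log2 fold change was 1.34 ± 0.34 with an edgeR adjusted p of 0.129, in a subtype where 0.48% of genes were called. The CCL11-led sub-cluster held 15, 29, 40 of these cells in controls and 57, 43, 234 in asthma and the RBP4-led one 29, 50, 125 and 22, 18, 1, so the mix moved with the PTGDS level, and its part in it was not tested.

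The fibroblast-like sub-clusters shared the high values in asthma 10. In the one led by CCL11 PTGDS was 4260, 5191, 2815 CPM in controls and 4014, 7571, 11266 CPM in asthma, overlapping at asthma 8, and in the one led by RBP4 it was 1435, 2172, 2495 CPM in controls and 5261 and 6085 CPM in asthma 8 and 10. APOE moved with it, at 1848, 3019, 1344 CPM in controls and 6675, 7496, 6540 CPM in asthma in the fibroblast-like cells. APOE made up most of a list of 10 macrophage markers, and the other 9 summed to 73.5, 26.0, 17.3 and 51.8, 40.6, 57.4 CPM. Within that list C1QA, C1QB and C1QC summed to 7.73, 8.68, 8.65 and 16.8, 21.7, 14.0 CPM. Their part in the PTGDS level was not tested.

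Elsewhere PTGDS varied widely between animals. Epithelial cells had 8.91, 7.42, 1.42 CPM in controls and 25.4, 14.8, 18.1 CPM in asthma, without overlap, as for 12.8% of genes tested there (log2 fold change 1.62 ± 0.61, edgeR adjusted p = 0.687). Their mix differed, with 16, 4, 3 type 1 alveolar-like cells in controls and 95, 30, 59 in asthma. PTGDS in these averaged 44.2 CPM in controls (control 1 alone) and 35.5 CPM in asthma. In type 2 alveolar-like cells the means were 3.19 and 11.8 CPM. The part of the mix in the epithelial level was not tested. Interstitial macrophage-like cells had 7.66, 1.83, 4.36 and 40.6, 6.29, 26.9 CPM, where asthma 10 lay below control 1 (2.03 ± 0.82, edgeR adjusted p = 0.937, and called at 0.0198 with no filter on low counts). Classes with little PTGDS also had higher means in asthma, from 3.72 to 7.74 CPM in T and NK-like, 2.68 to 9.57 CPM in B-like, 1.95 to 5.38 CPM in monocyte-like and 13.1 to 43.1 CPM in granulocyte-like cells. Some of their subtypes went the other way. Means ran from 4.53 to 4.18 CPM in NK-like, 3.28 to 1.43 CPM in proliferating, 4.84 to 0 CPM in regulatory T-like and 2.28 to 1.55 CPM in classical monocyte-like cells. A UMI was seen in 9.06% of epithelial cells at a median of 8655 UMIs and in 1.69% of T and NK-like cells at 3660, and the part of free RNA in these low levels was not tested. In mesothelial-like cells PTGDS was 999, 2507, 1242 CPM in controls and 1498, 1194, 4763 CPM in asthma (log2 fold change 0.52 ± 0.68, edgeR adjusted p = 0.999, and -0.33 to 1.08 on leaving out 1 animal). Macrophage-like cells had 561, 92.9, 284 and 221, 5.57, 243 CPM (-1.12 ± 1.2, edgeR adjusted p = 0.924), and the alveolar macrophage-like cells of control 1 reached 1009 CPM. In the whole alveolar cluster PTGDS was 712, 141.5, 380.3 CPM in controls and 274, 9.27, 423 CPM in asthma. The groups overlapped in mesothelial-like and macrophage-like cells. In whole libraries PTGDS was 352, 190, 209 CPM in controls and 378, 181, 716 CPM in asthma (0.58 ± 0.50, edgeR adjusted p = 0.683), and the log2 fold change was -0.01 without asthma 11.

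HPGDS, the hematopoietic enzyme, was the least often detected gene of the set. Over all libraries interstitial macrophage-like cells held 47.5% of its 221 UMIs and mast-like cells 23.5%, and the share of the former ran from 3.7% in asthma 8 to 77.9% in asthma 11. In the mast-like cells of asthma 8 and 10 it was 119 and 94.1 CPM, with a UMI in 31 of the 97 cells, while PTGDS was seen in 2 of them. In interstitial macrophage-like cells it was 5.95, 0.916, 6.10 CPM in controls and 1.66, 4.001, 33.0 CPM in asthma, the high value in asthma 11 coming with a sub-cluster led by ITM2C, HPGDS and FOLR2 that held 52 of its 69 cells in that animal. In whole libraries HPGDS was 0.695, 0.244, 0.692 CPM in controls and 1.79, 1.27, 3.03 CPM in asthma, without overlap (1.72 ± 0.51, edgeR adjusted p = 0.277).

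HPGD, the enzyme that inactivates prostaglandins, had the largest log2 fold change among the pairs tested for the 10 genes. In whole libraries it was 11.96, 14.5, 4.95 CPM in controls and 117, 126, 164 CPM in asthma, means of 10.46 ± 4.93 and 135 ± 24.98 CPM (SD, n = 3 each). Each asthma library stood far above all controls. The log2 fold change was 3.52 ± 0.44, with an edgeR adjusted p of 0.0600, just outside the threshold. Stromal cells held 32.2%, 75.3%, 57.4% of its UMIs in controls and 69.6%, 84.9%, 91.8% in asthma. HPGD in them was 183, 335, 41.0 CPM in controls and 1379, 2516, 1220.4 CPM in asthma, where 31.6% of all genes did not overlap (2.93 ± 0.76, edgeR adjusted p = 0.122).

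Within the stroma HPGD was a gene of capillary endothelial-like cells. They were 350 cells in all and held 24.5%, 74.4%, 42.6% of HPGD UMIs in controls and 60.5%, 73.5%, 50.3% in asthma, with a UMI in 349 of 350 cells at a median of 2874 UMIs, against 0.580% of T and NK-like cells at 3660. The level in these cells overlapped between the groups. It was 6710.1, 9992, 7931 CPM in controls and 6575, 6364, 8582 CPM in asthma, where controls 1 and 3 rest on 8 and 6 cells. These cells numbered 8, 13, 6 in controls and 103, 124, 96 in asthma, or 0.184%, 0.406%, 0.154% and 2.49%, 2.68%, 2.38% of kept cells, higher in every asthma library. With 3 animals a side the exact permutation test of such a share cannot go below p = 0.1. The parts of cell number and of level per cell in the whole-library and stromal HPGD levels were not tested.

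A neighbouring endothelial sub-cluster, led by SEMA3G, TMEM88 and MCF2L, also held more cells in asthma. It held 4, 0, 5 cells in controls and 84, 68, 194 in asthma and carried HPGD at 1489 and 1247 CPM in controls 1 and 3 and 1362, 2161 and 3042 CPM in asthma 8, 10 and 11. It accounted for 7.51%, 0%, 11.03% of HPGD UMIs in controls and 8.72%, 11.25%, 39.3% in asthma, the highest share being that of asthma 11. Over all controls and over all asthma libraries its share was 5.08% and 20.4%, and that of all other stromal cells together 0.995% and 0.928%. In these others HPGD had 1, 3, 5 UMIs in controls and 12, 6, 91 in asthma. Mixed sub-clusters that were first grouped with the stromal cells and then left out of the classes held 423 and 319 HPGD UMIs. Their levels were 446.6 and 318.5 CPM, and they stayed in the whole-library sums. With the capillary endothelial-like cells left out, the whole-library log2 fold change was 3.19 (edgeR adjusted p = 0.232), and with the SEMA3G sub-cluster left out as well it was 2.20 (edgeR adjusted p = 0.365). Mast-like cells, at 2222 and 1839 CPM in asthma 8 and 10, held 2.66%, 8.99%, 12.5% of HPGD UMIs in controls and 19.6%, 6.25%, 0.457% in asthma. LTC4S and HPGD were found together in 82 of the 97 mast-like cells.

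**Figure D5:**
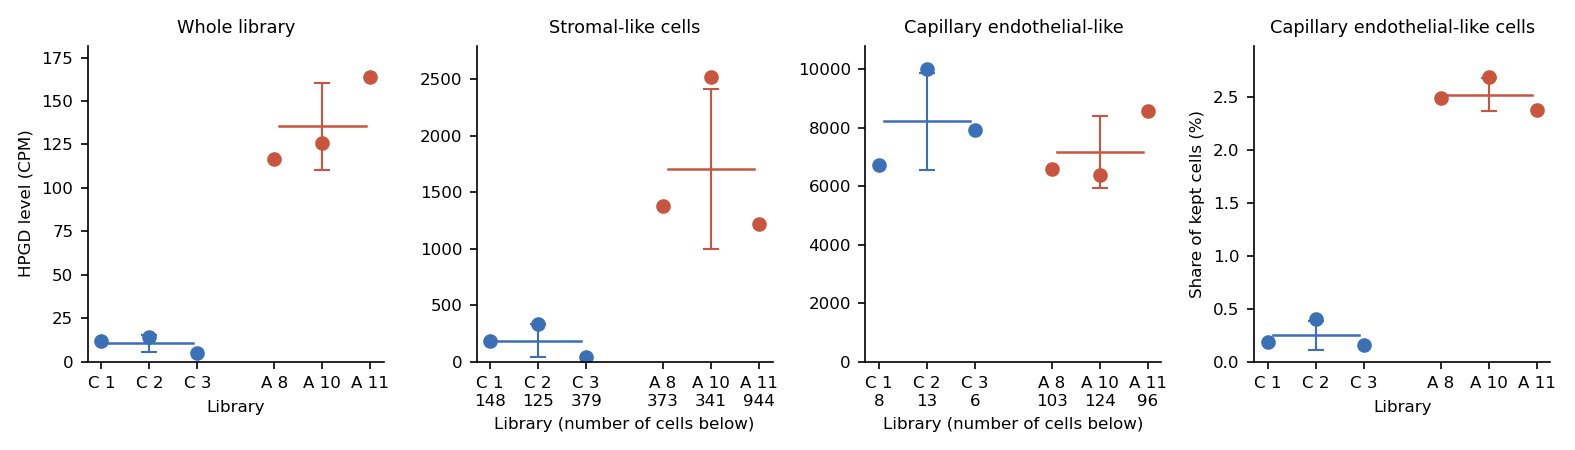
HPGD in each control (C) and asthma (A) library: its level (CPM) in whole libraries, in stromal cells and in capillary endothelial-like cells, and the share of capillary endothelial-like cells among kept cells (percent), with group means as lines and SDs as bars (n = 3 each) and the number of cells below. Whole-library and stromal levels and the cell share were higher in all asthma libraries, while the level within capillary endothelial-like cells (6364 to 9992 CPM) overlapped between the groups.

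Among ranked classes other than stromal the mean HPGD level was at most 9.91 CPM. Macrophage-like cells had 13.2, 4.45, 0.309 CPM in controls and 1.46, 2.72, 4.10 CPM in asthma, and in control 1, where they numbered 980, they held 56.7% of HPGD UMIs, more than the stromal cells. In alveolar macrophage-like cells HPGD was 24.9, 6.34, 0.460 CPM in controls and 1.76 and 4.54 CPM in asthma 8 and 11, with overlap (-1.98 ± 1.55, edgeR adjusted p = 0.961, and called lower at -1.95 ± 0.43 with no filter on low counts). In the whole alveolar cluster it was 16.9, 5.11, 0.417 and 1.73, 4.74, 4.72 CPM, again with overlap. Basal-like epithelial cells had 57.8 and 24.2 CPM in controls 1 and 3 and 57.3, 122, 146 CPM in asthma, with 10 and 93 cells in the controls and 11, 23, 14 in asthma (1.87 ± 0.49, edgeR adjusted p = 0.201, control 2 with 3 cells left out of the fit). Control 1 and asthma 8 were level with each other there, and without asthma 8 the difference was 2.12 ± 0.46 and passed the test (edgeR adjusted p = 0.00353).

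The rest of the pathway was taken from a list of 59 phospholipases, synthases, receptors, transporters and clearing enzymes, 50 of which are in the files. In whole libraries 1 of 40 tested genes rose in asthma and none fell, beside the 0.0699% of all genes called (7 at an unadjusted p below 0.05; DESeq2 called 6, beside its 4.52%), in classes 1 of 161 gene and class pairs rose and none fell (19 at p below 0.05; DESeq2 called 2, beside 0.848%), and in subtypes 0 of 172 were called (16 at p below 0.05; DESeq2 called 0). SLCO2A1, the transporter that carries prostaglandins into cells for breakdown by HPGD, was the gene that rose in whole libraries, from 0.666, 0.529, 0.510 to 4.97, 5.94, 5.08 CPM (log2 fold change 3.06 ± 0.29, edgeR adjusted p = 0.0354). CYP2J2, an epoxygenase, rose in stromal cells, from 4.13, 1.25, 1.58 to 24.8, 54.0, 17.9 CPM (3.63 ± 0.65, edgeR adjusted p = 0.0368). Both had their highest level in the capillary endothelial-like cells, whose numbers moved with them, and the part of these numbers was not tested. The SLCO2A1 call was lost on leaving out any single library (edgeR adjusted p from 0.0682 to 0.172), and that of CYP2J2 on leaving out any but asthma 11 (0.0711 to 0.207, and 0.00682 without asthma 11).

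Other genes of the pathway had leading classes of their own, given as mean levels. PLA2G2A, which frees arachidonic acid, led in mesothelial-like cells, as ALOX15 did, with 2070, 1550, 3950 CPM in controls and 3192, 524, 225 CPM in asthma, which overlapped. PTGIS, the prostacyclin synthase, had 60.3 CPM there and 38.5 CPM in stromal cells, PTGES, the prostaglandin E synthase, 45.1 CPM in stromal and 13.3 CPM in epithelial cells, and TBXAS1, the thromboxane synthase, 82.9 CPM in granulocyte-like and 43.5 CPM in monocyte-like cells. Among receptors, the prostaglandin E2 receptor PTGER4 was nearly level in macrophage-like and monocyte-like cells (124 and 120 CPM), as was the cysteinyl leukotriene receptor CYSLTR1 in mesothelial-like and B-like cells (59.2 and 58.4 CPM). PTGER2, another prostaglandin E2 receptor, led in monocyte-like cells (65.6 CPM, next the PLD4 cluster at 15.4 CPM), the prostaglandin D2 receptor PTGDR in T and NK-like cells (20.6 CPM, next granulocyte-like at 2.78 CPM) and CYSLTR2 in macrophage-like cells (19.6 CPM, next T and NK-like at 4.85 CPM).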

How the data were processed

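Lung cells of 3 control and 3 asthma monkeys were measured by 10x 3′ single-cell RNA sequencing. The authors deposited raw UMI counts per gene and barcode for each library, made with Cell Ranger (2.1.1 in the processing notes, 4.0.0 in the file headers) on the macFas6 build. The labels name no batch. The 10 genes and all lists were chosen with earlier results of these data known. The text names each of the 10, and of the wider list the genes called and the leading enzymes and receptors.

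A cell was kept if its gene number lay between 500 and 5000, its UMIs reached 500 and no more than 25% of them came from the 37 mitochondrial genes. Kept cells were clustered with scanpy 1.11.5 and leidenalg 0.10.2 (2000 variable genes without the 10 enzymes and the wider list, 10 components, 20 neighbours, resolution 0.8) and named from 208 marker symbols, 18 of which were absent. The authors' own cell annotation was not used. Sub-clusters with markers of several classes (1650 cells, limits set after seeing the data) were left out of the classes. A doublet caller marked 10 cells, too few to be of use, so removal of the highest scores was run as an alternative.

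UMIs were summed per library and cell type, with at least 10 cells a library and 2 libraries a group, and tested with edgeR 4.0.16 (TMM scaling, filterByExpr, robust quasi-likelihood test, R 4.3.3) with Benjamini-Hochberg adjustment over all genes of the unit. ± beside a log2 fold change is its standard error. The fits were checked on simulated counts. Alternatives were DESeq2 1.42.0, no low-count filter, other cell filters and clusterings, and leaving out each animal. Shares of cells and UMIs are descriptions given without errors, and those pooled over libraries do not show the spread between animals.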

Additional observations from a re-analysis of the deposited data

Results flagged for a closer look

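PTGS2 differed in opposite directions in a pair of stromal cell types. Its log2 fold change of asthma over control was 0.71 in fibroblast-like cells, where every asthma library lay above every control, and -2.24 in larger-vessel endothelial-like cells, where every asthma library lay below. Neither passed the test in the main fit. The immediate-early genes tested in the same cells had median log2 fold changes of 0.40 and -1.37, and their part in the PTGS2 levels was not tested. The pair was picked for these opposite directions, and the difference between them was not tested. The fibroblast-like cells of the groups came from sub-clusters in different proportions (RBP4-led 29, 50, 125 cells in controls and 22, 18, 1 in asthma), and in the RBP4-led cells PTGS2 overlapped.

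Barcodes that failed the quality filter also held signal of these genes. In them 3 of the 10 genes, LTC4S, HPGD and HPGDS, did not overlap, beside 11.4% of all genes with at least 10 UMIs there, and HPGDS had only 21 UMIs. LTC4S in them was 14.1, 11.03, 6.48 CPM in controls and 27.6, 39.6, 23.2 CPM in asthma, so the lowest asthma library (23.2 CPM) exceeded the highest control. HPGD was 22.4, 8.12, 11.3 CPM in controls and 27.7, 29.2, 88.5 CPM in asthma, the lowest asthma library (27.7 CPM) again exceeding all controls.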

How the results depend on the processing

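No paired analysis was possible because the control and asthma animals share no replicate numbers. The 0 calls among the 10 genes in whole libraries became 1 with DESeq2 (HPGD) and 0 to 1 on leaving out 1 animal (HPGD without control 3, log2 fold change 3.16, edgeR adjusted p = 0.0459). The 0 calls within classes became 2 with DESeq2, 4 with no filter on low counts (PTGS2 lower in stromal and monocyte-like and higher in mesothelial-like cells, and HPGD higher in monocyte-like cells, where 20 of its 22 UMIs were in asthma 11; 0.466% of all genes were called so), 1 with the highest doublet scores removed and 0 to 1 on leaving out 1 animal (PTGS2 in stromal cells without control 2, -1.59, edgeR adjusted p = 0.0315; PTGS1 in mesothelial-like cells without asthma 8, -2.76, 0.0229). The 0 calls within subtypes became 3 with at least 200 genes and no maximum (PTGS2 and LTC4S in larger-vessel endothelial-like, PTGDS in fibroblast-like cells), 2 with DESeq2, 8 with no filter (PTGS2 lower in 3, PTGDS higher in fibroblast-like and interstitial macrophage-like cells, HPGD lower in alveolar macrophage-like and higher in larger-vessel endothelial-like cells, ALOX5AP higher in NK-like cells; 0.533% of all genes), 1 with at most 10% mitochondrial UMIs, 1 at resolution 1.6 and 0 to 2 on leaving out 1 animal, where ALOX15 in fibroblast-like cells passed without asthma 10, HPGD in basal-like cells without asthma 8 and ALOX5AP in NK-like cells without control 2 (4.25, edgeR adjusted p = 0.0159). PTGS2 in larger-vessel endothelial-like cells was called with at least 200 genes (-3.25, edgeR adjusted p = 0.00128), with DESeq2 (adjusted p = 0.0240), at resolution 1.6 (edgeR adjusted p = 0.0279) and without control 2 (0.0238). PTGDS in fibroblast-like cells was called with at least 200 genes (edgeR adjusted p = 0.0294), with DESeq2 (0.00631), at 10% mitochondrial UMIs (0.00954) and without asthma 8 (0.00947). The 1 wider-list call within classes became 2 with DESeq2, 2 with no filter and 0 to 2 on leaving out 1 animal. For the other cell filters and clusterings, doublet removal and leaving out an animal, the share of all genes called is not given. The counts of calls under those alternatives therefore have no background to be set against.

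Several log2 fold changes within their error of 0 or close to it changed sign. LTA4H in the PLD4 cluster was 0.06 and became -0.26 with the enzyme genes allowed in clustering, -0.08 with doublets removed and -0.26 at resolution 1.6, and ALOX15 in mesothelial-like cells was -0.14 and became 0.16 with mixed sub-clusters kept. On leaving out 1 animal the ranges were -0.19 to 0.25 for ALOX5, -0.01 to 0.17 for ALOX5AP, -0.27 to 0.29 for PTGS1 and -0.01 to 0.97 for PTGDS in whole libraries, -0.16 to 0.25 for ALOX5AP in macrophage-like cells, -0.02 to 0.43 for LTC4S and -0.33 to 1.08 for PTGDS in mesothelial-like cells, and -0.23 to 0.42 for LTA4H in the PLD4 cluster. The causes were not tested. The 7 genes above the next class in every library became 6 under some alternatives. These were at most 10% mitochondrial UMIs, resolution 1.6, enzyme genes allowed in clustering and mixed sub-clusters kept. On leaving out 1 animal there were 7 or 8. The leading class of HPGDS became macrophage-like with mixed sub-clusters kept and without control 1, 2 or 3 or asthma 8. That of PTGS1 became mesothelial-like without control 1. Depth limits HPGDS most, with 221 UMIs, and HPGDS in macrophage-like and B-like cells, HPGD in mesothelial-like cells and ALOX5 in granulocyte-like cells had too few counts to be tested.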

Other observations

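A mixed sub-cluster of 21 granulocyte-like cells, left out of the classes, was led by CLC, FCER1A and CPA3, genes known from eosinophils, basophils and mast cells. It held LTC4S at 994 CPM (52 UMIs), ALOX5 at 401 CPM, ALOX5AP at 306 CPM and HPGD at 669 CPM over all its cells.

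Among the barcodes with too few genes, PTGS2 was 1382, 468, 965 CPM in controls and 803, 576, 472 CPM in asthma. Among all excluded barcodes ALOX15 was 21.4, 19.5, 27.4 CPM in controls and 213, 230, 12.96 CPM in asthma, high in the same libraries as among the kept cells. In a mesothelial-like sub-cluster of 122 cells led by IL6 and NR4A1, 48 of them from asthma 8 and 60 from asthma 10, PTGS2 was 323 and 77.8 CPM in these animals.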
